A study of Mus musculus with 8 samples.

Results

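Fibroblast growth factor (FGF) receptors and ligands were examined in brain endothelial cells (ECs) of P9 mouse pups with and without an activated *Map2k1* allele. The set holds 7 genes chosen by name out of 49315 gene identifiers in the count files. It has 4 receptor genes (*Fgfr1*, *Fgfr2*, *Fgfr3* and *Fgfrl1*) and 3 ligand genes (*Fgf1*, *Fgf2* and *Fgf7*). The mutant pups, labelled Map2k1 K57N, carried R26 GT-Map2k1-GFP/+ together with Tg-Cdh5CreER, so that Cre driven by an endothelial cadherin promoter released a *Map2k1* (p.K57N) cDNA under a CAG promoter at the *Rosa* locus. The controls are labelled wild type, but of the titles of the study's supplementary gene lists, one names wild-type pups and another a Tg:Cdh5-CreER pup as the control, and which holds for each library was not settled here. Tamoxifen was injected into the litters at P1, and ECs were captured at P9 from collagenase-digested whole brain with magnetic beads against the surface protein CD31. Each of 4 mutant and 4 wild-type pups gave 1 poly(A) RNA library. By the study's own account the allele was recombined in a minority of the captured ECs, so each mutant library mixes recombined and unrecombined cells. The methods state that wild-type pups were drawn from the litters of the mutants.

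FGF ligands bind receptor tyrosine kinases together with heparan sulfate, and the activated receptors recruit adaptors that feed the RAS-RAF-MEK-ERK cascade, of which *Map2k1* encodes MEK1. In ECs, FGF signalling is known for its part in angiogenesis, in vessel integrity and in the upkeep of VEGF receptor levels. *Fgfr1* encodes the receptor usually most abundant in ECs, *Fgfr2* and *Fgfr3* are also used by glia, and *Fgfrl1* encodes a receptor-like protein without a kinase domain. FGF1 and FGF2 are ligands without a classical signal peptide, while FGF7 is a secreted ligand of mesenchymal cells that acts on an epithelial splice form of FGFR2.

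The 8 libraries held between 24833373 and 34196955 counts on genes. *Map2k1*, which checks the labels, was higher in every mutant library, with a fitted log2 fold change of 3.18 (SE 0.13, edgeR adjusted p = 2.84e-07). The summed normalized counts of the endothelial marker list had a mutant over wild-type ratio of 1.02 (exact permutation p = 0.8), while its genes went both ways, with 3 of 10 higher (*Cdh5*, *Emcn* and *Pecam1*, log2 fold changes 1.11, 0.82 and 0.53), 3 lower (*Kdr*, *Cldn5* and *Tek*, -0.59, -0.47 and -0.44) and 4 not passing. Summed markers of the oligodendrocyte lineage (ratio 0.247, all 9 genes lower), neurons (ratio 0.496, 4 of 6 genes lower) and red blood cells (ratio 0.299, all 5 genes lower) were lower in the mutants without overlap between the groups, and the astrocyte list was higher (ratio 1.66). The neuronal gene *Rbfox3* went against its list, at 293 normalized counts in the mutants and 128 in the wild type, without passing (edgeR adjusted p = 0.0514). Each of these 4 lists gave an exact permutation p of 0.0286, the smallest that 4 against 4 libraries allow, and 0.0643 after adjustment over the 9 lists. The astrocyte sum was mostly *Gja1*, a connexin gene, and with it left out, as decided once its level was known, the ratio was 0.764 (exact permutation p = 0.457). The remaining lists overlapped between the groups, with ratios of 0.909 for pericytes (1.46 without its most abundant gene, *Rgs5*), 0.837 for smooth muscle, 1.27 for fibroblasts and 0.928 for microglia and macrophages. By gene, 2 of 6 pericyte genes were higher (*Abcc9* and *Kcnj8*, log2 fold changes 1.78 and 0.81). So were 1 of 4 smooth muscle genes (*Tagln*, 0.73) and 2 of 5 fibroblast genes (*Lum* and *Col1a1*, 0.67 and 0.39). No gene of these lists passed as lower, and no microglia or macrophage gene passed. No marker gene was at 0 in any library. In such bulk libraries, fewer cells of a type and less RNA per cell cannot be told apart.

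**Figure D1:**
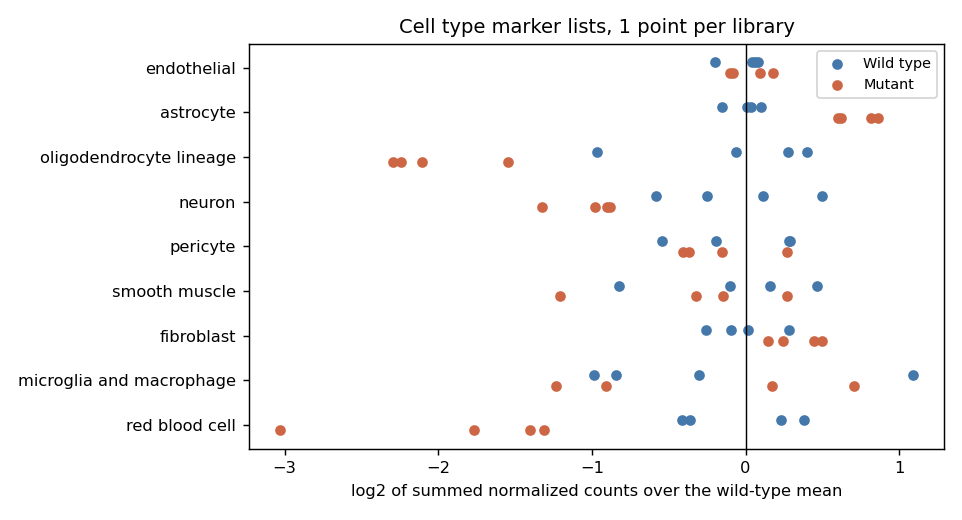
Summed normalized counts of 9 cell type marker lists in each library, on a log2 scale relative to the wild-type mean of the list (blue, 4 wild-type libraries, orange, 4 mutant libraries). The oligodendrocyte, neuron and red blood cell lists lie lower in all mutant libraries (ratios of 0.247, 0.496 and 0.299), while the endothelial list spreads around 0 in both groups.

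Across the 7 genes, *Fgfr1* rose in the mutants, and *Fgfrl1* fell slightly but passed the test in only 8 of 18 alternative analyses. *Fgfr2*, *Fgfr3*, *Fgf1* and *Fgf2* did not pass the test, although *Fgfr2* passed when codes shared by libraries were fitted as a block. *Fgf7* was too low to be tested. Passing means a Benjamini-Hochberg adjusted p under 0.05 in edgeR's quasi-likelihood test over 16887 genes, of which 44.4% passed, 21.5% higher and 22.9% lower in the mutants. Beside that background, 1 higher and 1 lower gene among the 6 tested do not mark the set out from other genes. The median fitted log2 fold change of the 6 genes was -0.33, beside -0.02 for all genes tested. *Fgfr1* alone also exceeded an absolute log2 fold change of 1, as 14.0% of all genes tested did. The mutant and wild-type values did not overlap for 2 of the 7 genes, *Fgfr1* and *Fgfrl1*, and for 42.5% of all genes tested. In the text, normalized counts are counts scaled by the TMM method to the mean library size.

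**Figure D2:**
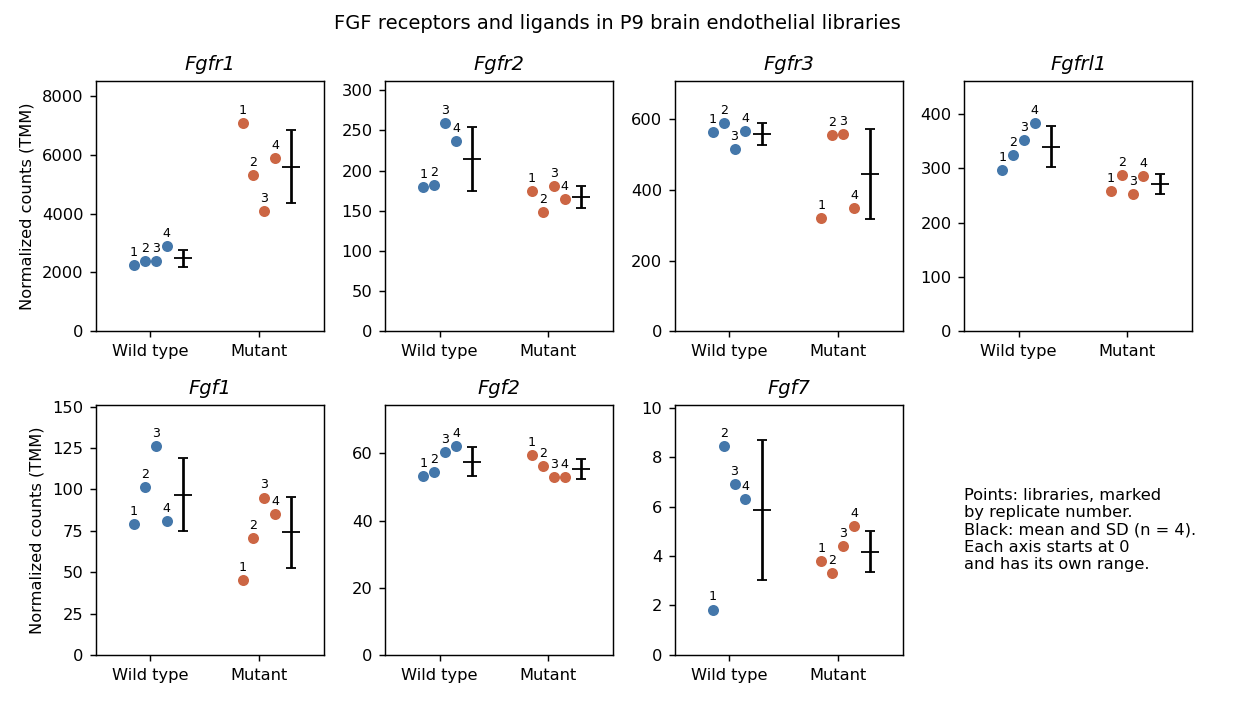
Normalized counts of the 7 genes in each library (points, marked with the replicate number), with the mean and SD of each group (black, n = 4) on an axis that starts at 0 for each gene. *Fgfr1* is at 4105 or more in every mutant library and at 2901 or less in every wild-type library, and the other genes lie lower or overlap.

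*Fgfr1* (ENSMUSG00000031565, GRCm38 chr8:25513654-25575718, plus strand) had the highest level per exon length of the FGF receptor genes in these libraries. Which of the captured cell types gave its reads was not tested. The mutant libraries held 7098, 5331, 4105 and 5884 normalized counts in replicates 1 to 4, and the wild-type libraries 2257, 2386, 2384 and 2901. The lowest mutant value exceeded the highest wild-type value, and the mutants spread more widely. The means were 5604 ± 1242 and 2482 ± 286 (SD, n = 4 each), a ratio of 2.26. The fitted log2 fold change was 1.18 (SE 0.15, 95% interval 0.84 to 1.51, edgeR adjusted p = 1.77e-04). The rise was thus past the test against no change, but its interval includes a log2 fold change of 1, and a test against that value gave an adjusted p of 0.492 (edgeR glmTreat).

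The library codes in the labels share leading digits in 3 sets, 1 with replicates 1 and 2, 1 with replicate 3 and 1 with replicate 4, whose meaning the labels do not give. Within these sets the log2 ratio of mutant to wild-type *Fgfr1* was 1.42, 0.78 and 1.02, higher in the mutants each time. Exons of *Fgfr1* share 164 bases, 1.66% of their length, with the antisense transcript *Gm16159*. That gene held 33.0 ± 8.87 normalized counts in the mutants and 17.6 ± 5.84 in the wild type (SD, n = 4 each), with a log2 fold change of 0.90 (SE 0.33, edgeR adjusted p = 0.0452). Its level was far below that of *Fgfr1*, and whether counting used the strand is not given in the sources used here.

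*Fgfr2* (ENSMUSG00000030849, GRCm38 chr7:130162451-133123350, minus strand) encodes a receptor whose splice forms bind different FGFs, which gene counts do not separate. It held 174, 149, 181 and 164 normalized counts in the mutant libraries and 180.1, 182, 260 and 237 in the wild type. Mutant replicate 3 lay above wild-type replicate 1 and just below wild-type replicate 2, and wild-type replicates 3 and 4 were higher than the rest. The log2 fold change was -0.36 (SE 0.16, edgeR adjusted p = 0.0827), with an unadjusted 95% interval of -0.70 to -0.02. With the library code as a block it passed (-0.35, edgeR adjusted p = 0.0435). The annotated span runs past many neighbouring genes, and 314 of its exonic bases, 3.04%, are shared with *Ctbp2* on the same strand. *Ctbp2*, which encodes a transcriptional corepressor, was lower by a log2 fold change of -0.24 (SE 0.07, edgeR adjusted p = 0.0231). Within the 3 sets of library codes the log2 ratios of *Fgfr2* were -0.16, -0.52 and -0.53, lower in the mutants each time.

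*Fgfr3* (ENSMUSG00000054252, GRCm38 chr5:33721674-33737068, plus strand) encodes a receptor best known as a brake on bone growth, and in brain it is expressed by astrocytes. The mutant libraries held 321, 554, 557 and 348 normalized counts and the wild-type libraries 563, 589.7, 516 and 567. Mutant replicates 1 and 4 were below all wild-type libraries, whereas replicates 2 and 3 lay within the wild-type range. The log2 fold change was -0.33 (SE 0.18, 95% interval -0.73 to 0.07, edgeR adjusted p = 0.160). Within the sets of library codes the log2 ratio was -0.40, 0.11 and -0.70, so its sign differed between sets. The astrocyte list without *Gja1* summed to 525, 684, 1420.4 and 677 in the mutant libraries and to 1252, 1258, 1222 and 596 in the wild type, and its part in the *Fgfr3* values was not tested. The antisense gene *G630022F23Rik*, which shares 998 exonic bases (13.9%) with *Fgfr3*, had 12 counts or fewer in every library and was not tested.

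*Fgfrl1* (ENSMUSG00000008090, GRCm38 chr5:108692382-108706924, plus strand) held 259, 288, 253 and 287 normalized counts in the mutant libraries and 297, 325, 353 and 384 in the wild type. The groups did not overlap, but the highest mutant value (288) and the lowest wild-type value (297) were close. The means were 272 ± 18.2 and 339.7 ± 37.3 (SD, n = 4 each), and the log2 fold change was -0.32 (SE 0.11, 95% interval -0.57 to -0.07, edgeR adjusted p = 0.0416). The call was lost when any 1 library other than wild-type replicate 1 was left out (adjusted p 0.0564 to 0.110) and with the size factors of DESeq2 (adjusted p = 0.0540). Within the sets of library codes the log2 ratios were -0.19, -0.48 and -0.42, lower in the mutants each time.

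The stretch before a RefSeq start of *Fgfrl1* is shown because, among the windows found for these genes, it alone matched the ETS core motif. The ERK-responsive *Etv* genes belong to the ETS family. RefSeq promoter windows were found for 5 of the 7 genes (6 windows), and the 250 bases before the start were searched on both strands for 4 motifs. No window was found for *Fgfr1* or *Fgf1*, so whether these genes have such matches was not examined. The motifs and the window printed were chosen after the expression values and the matches were seen. The window lies at GRCm38.p6 chr5:108693979-108694228, plus strand. This is inside the span over which *Fgfrl1* was counted, which begins at 108692382, and the window holds no annotated *Fgfrl1* exon. Capitals mark 1 match to the ETS core CCGGAAG, starting 48 bases before the start, and 2 matches to the GC box GGGGCGGGG, starting 220 and 86 bases before it.
Fgfrl1: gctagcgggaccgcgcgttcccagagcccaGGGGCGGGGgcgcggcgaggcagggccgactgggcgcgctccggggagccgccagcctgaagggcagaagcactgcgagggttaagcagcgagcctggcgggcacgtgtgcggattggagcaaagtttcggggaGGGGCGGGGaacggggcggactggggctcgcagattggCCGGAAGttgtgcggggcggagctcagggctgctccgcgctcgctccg
Of 32851 promoter windows of the same length, 6.91% hold CCGGAAG and 10.4% hold GGGGCGGGG. The AP-1 motif TGANTCA (6.75% of windows) and the CRE motif TGACGTCA (1.55%) were in none of the 6 windows. *Fgf2* had 1 match to the GC box, in a window that is annotated as exon over all 250 bases, and the windows of *Fgfr2*, *Fgfr3* and *Fgf7* had no match to any of the 4 motifs. Of 1 of the *Fgfr3* windows, 50 bases are annotated exon.

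The ligand *Fgf1* (ENSMUSG00000036585, GRCm38 chr18:38838673-38929404, minus strand) binds all FGF receptors. It held 45.5, 70.6, 95.1 and 85.1 normalized counts in the mutant libraries and 79.0, 101, 126 and 81.0 in the wild type. Mutant replicates 1 and 2 were below the wild-type range and replicates 3 and 4 within it. The log2 fold change was -0.38 (SE 0.25, 95% interval -0.94 to 0.17, edgeR adjusted p = 0.239). Within the sets of library codes the log2 ratio was -0.64, -0.41 and 0.07. At this depth *Fgf1* had 36 to 146 counts per library, and neither a fall by 0.94 nor a rise by 0.17 on the log2 scale lies outside the interval.

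*Fgf2* (ENSMUSG00000037225, GRCm38 chr3:37348346-37410108, plus strand), the prototype angiogenic FGF, was among the most even of these genes. Its normalized counts were 59.4, 56.3, 53.1 and 53.0 in the mutant libraries and 53.3, 54.4, 60.4 and 62.1 in the wild type. The groups overlapped throughout. The log2 fold change was -0.05 (SE 0.17, 95% interval -0.43 to 0.32, edgeR adjusted p = 0.816). Its exons share 640 bases (9.44%) with the antisense gene *Nudt6*, which did not pass the test either (log2 fold change 0.36, SE 0.21, edgeR adjusted p = 0.186). *Gm43439*, which shares 255 bases with *Fgf2* on the same strand, had 0 counts in every library.

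*Fgf7* (ENSMUSG00000027208, GRCm38 chr2:126034658-126091185, plus strand) had 3, 3, 4 and 6 raw counts in the mutant libraries and 2, 9, 8 and 6 in the wild type. It did not reach the minimum count for testing, and a difference was not detectable at this depth.

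**Figure D3:**
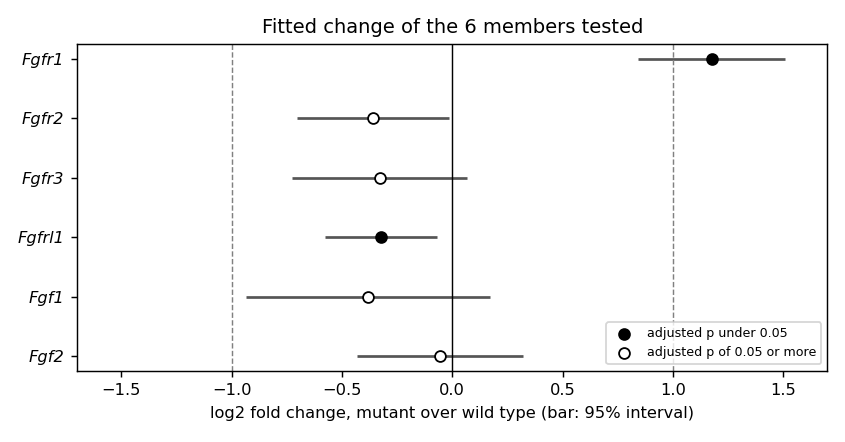
Fitted log2 fold change of mutant over wild type (points) with its unadjusted 95% interval (bars) for the 6 genes tested, with dashed lines at -1 and 1. The interval of *Fgfr1* runs from 0.84 to 1.51, and those of the other genes reach no higher than 0.32.

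Levels between genes were compared per length, as RPKM, the normalized counts scaled to exon length and library size. In the wild type, *Fgfr1* was highest at 8.49 ± 0.977 RPKM, ahead of *Fgfrl1* at 4.12 ± 0.453 and *Fgfr3* at 2.64 ± 0.147 (SD, n = 4 each). *Fgf1* (0.703 ± 0.159) and *Fgfr2* (0.702 ± 0.130) followed at levels that did not differ beyond their spread. *Fgf2* (0.286 ± 0.0216) and *Fgf7* (0.0611 ± 0.0295) were lowest. In the mutants *Fgfr1* stood at 19.2 ± 4.25 RPKM, *Fgfrl1* at 3.30 ± 0.221, *Fgfr3* at 2.10 ± 0.604, *Fgfr2* at 0.547 ± 0.0460, *Fgf1* at 0.538 ± 0.157, *Fgf2* at 0.276 ± 0.0152 and *Fgf7* at 0.0435 ± 0.00855. Except for *Fgfr2* and *Fgf1*, which exchanged places within their spread, the order was that of the wild type. For scale, *Kdr*, the main VEGF receptor gene of ECs, stood at 257 ± 26.2 RPKM in the wild type and 171 ± 21.9 in the mutants. The lengths are those of all annotated exons, so a gene used mostly as a short transcript has a higher true level than its RPKM.

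The make-up of the signalling receptors was described as each gene's share of the summed RPKM of *Fgfr1* to *Fgfr4*. *Fgfr4* encodes the remaining kinase receptor and was not among the 7 genes. The share of *Fgfr1* was 91.7%, 84.7%, 80.3% and 89.4% in the mutant libraries and 63.7%, 65.7%, 66.3% and 70.2% in the wild type, with means of 86.5 ± 5.06% and 66.5 ± 2.72% (SD, n = 4 each). The share of *Fgfr3* was 10.05 ± 4.30% in the mutants and 20.8 ± 1.67% in the wild type, and that of *Fgfr2* was 2.55 ± 0.570% and 5.51 ± 0.980%. *Fgfr4* took 0.871 ± 0.331% and 7.25 ± 1.71%. The groups did not overlap in any of these shares. Since shares add up to 100%, those of *Fgfr2* and *Fgfr3* move with *Fgfr1* even where their own levels did not pass the test. The sum itself was 26.5, 21.5, 17.5 and 22.5 RPKM in the mutant libraries and 12.1, 12.4, 12.3 and 14.1 in the wild type. No p is given for the shares or the sum, because they are built from the genes chosen here.

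**Figure D4:**
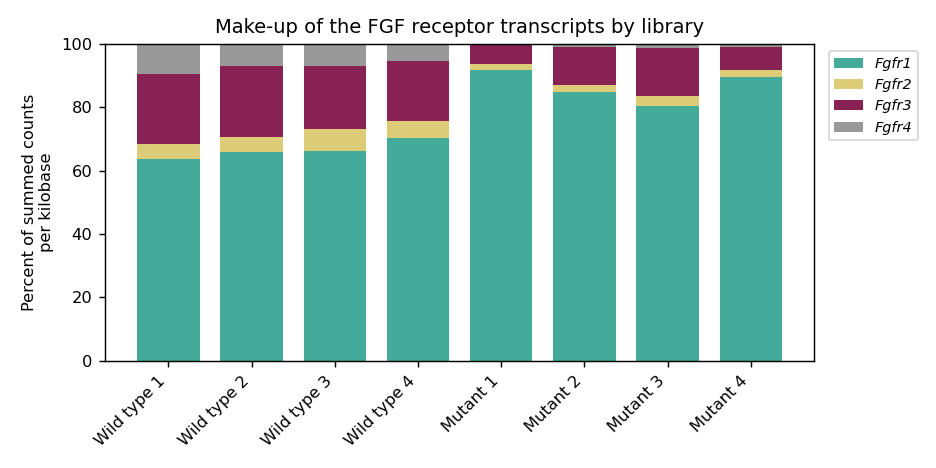
Share of each FGF receptor gene in the summed counts per kilobase of *Fgfr1* to *Fgfr4*, in percent (vertical axis), for the 8 libraries. *Fgfr1* takes 80.3% to 91.7% in the mutant libraries and 63.7% to 70.2% in the wild-type libraries.

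The other genes of the pathway were taken from 7 lists of 64 genes, of which 52 were tested. Of these, 14 were higher, 16 were lower and 22 did not pass, with a median log2 fold change of -0.15. Among all genes tested, 21.5% were higher and 22.9% lower, and the counts of each list below are to be read beside these shares. Among the 15 other secreted ligands, 4 were tested, and 1 was higher and 1 lower (2 lower without a filter on low counts). These were named after their values were seen. *Fgf23*, which encodes a hormone of phosphate balance made mainly in bone, had 63, 70, 51 and 107 raw counts in the mutant libraries and 1, 0, 2 and 3 in the wild type. The group totals of 291 and 6 counts gave a ratio of 55.1 per scaled library size, with a 95% counting interval of 25.0 to 151 (edgeR adjusted p = 1.32e-05). *Fgf9*, which encodes a ligand made by neurons and glia among other cells, had 2, 0, 6 and 6 counts in the mutants and 15, 24, 42 and 23 in the wild type, and was lower (edgeR adjusted p = 0.00371).

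Of the other receptor and co-receptor genes, *Fgfr4* was lower at 12.6, 19.9, 23.2 and 20.8 normalized counts in the mutants against 121, 91.9, 90.6 and 79.9 in the wild type. Its log2 fold change was -2.31 (SE 0.24, edgeR adjusted p = 5.29e-05), and it was named after its value was seen. The co-receptor genes *Kl*, which encodes the FGF23 partner klotho, and *Klb* did not pass (log2 fold changes -1.18, SE 0.58, and -0.86, SE 0.60), although 2 genes of this list were lower when mutant replicate 3 was left out or with the library code as a block. *Kl* held 22.7 to 94.0 normalized counts in the mutants and 35.8 to 229 in the wild type.

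Among the FGF homologous factors, which stay inside the cell and bind sodium channels in neurons, 2 of 3 tested genes were lower, and 1 when mutant replicate 1 or 4 or wild-type replicate 3 was left out or low counts were not filtered. *Fgf13* held 25.96 ± 7.56 normalized counts in the mutants and 186 ± 11.6 in the wild type (SD, n = 4 each), with a log2 fold change of -2.84 (SE 0.21, edgeR adjusted p = 7.09e-06). The summed neuron markers were lower too, although *Rbfox3* was not (sums of 671.9 to 914 in the mutants, 1123 to 2373 in the wild type), and their part in the values of *Fgf13* and *Fgf9* was not tested.

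FGF binding and receptor partner proteins were split, with 3 higher, 2 lower and 2 not passing of 7 tested, and 1 was lower when mutant replicate 1 or 4 or wild-type replicate 1 or 3 was left out. *Flrt3*, whose product is a membrane protein that binds FGF receptors, was higher by a log2 fold change of 1.23 (SE 0.19, edgeR adjusted p = 5.39e-04). *Ncam1*, a neural adhesion molecule that engages FGFR1, was also higher (0.81, SE 0.19, edgeR adjusted p = 0.00593). The related *Flrt2* was lower (-0.82, SE 0.14, edgeR adjusted p = 0.00109), at 1763 ± 413 normalized counts in the mutants and 3115 ± 137 in the wild type (SD, n = 4 each).

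Of 12 receptor adaptors and effectors, 2 were higher, 5 lower and 5 did not pass. Without mutant replicate 4, 3 were lower, and without wild-type replicate 1 or 2, 1 was higher, as with upper quartile or total count scaling or no filter on low counts. The docking protein genes *Frs3* (log2 fold change -0.85, SE 0.19, edgeR adjusted p = 0.00492) and *Gab1* (-0.82, SE 0.10, edgeR adjusted p = 1.22e-04) were lower. *Cbl*, which encodes a ubiquitin ligase that directs receptors to degradation, was higher (0.49, SE 0.07, edgeR adjusted p = 2.71e-04). *Frs2*, which encodes the main FGF receptor docking protein and was named after its value was seen, stood at 1239 ± 79.2 and 1201 ± 68.3 normalized counts (SD, n = 4 each), did not pass (edgeR adjusted p = 0.652), and its sign turned with the scaling.

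Of 13 enzymes that make or edit heparan sulfate, the co-factor of FGF binding, 2 were higher, 3 lower and 8 did not pass. *Ext1*, a heparan sulfate polymerase gene, held 3206 ± 336 normalized counts in the mutants and 1504 ± 124 in the wild type (SD, n = 4 each), with a log2 fold change of 1.09 (SE 0.09, edgeR adjusted p = 1.52e-05). *Extl3*, which acts in the initiation of the chain, was lower (-0.66, SE 0.10, edgeR adjusted p = 4.69e-04), as was the extracellular sulfatase gene *Sulf1* (-0.54, SE 0.12, edgeR adjusted p = 0.00452).

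The feedback inhibitors and ETS targets downstream of FGF and ERK had 6 higher, 2 lower and 2 not passing of 10 tested, with a median log2 fold change of 0.78. *Etv4*, an ETS factor gene, rose most among the list, by a log2 fold change of 4.28 (SE 0.15, edgeR adjusted p = 1.27e-07), from 74.6 ± 10.3 to 1451 ± 228 normalized counts (SD, n = 4 each). The inhibitor genes *Spred1* (0.98, SE 0.11, edgeR adjusted p = 7.54e-05) and *Spry2* (0.92, SE 0.10, edgeR adjusted p = 8.85e-05) were higher. The 2 lower genes, named after their values were seen, were inhibitor genes too. These were *Spry1* (-0.87, SE 0.21, edgeR adjusted p = 0.00745) and *Dusp6* (-0.41, SE 0.10, edgeR adjusted p = 0.00886). With upper quartile or total count scaling, with a minimum mean of 100 counts or with the library code as a block, 4 genes of this list were lower. The protein of the mutant allele, MEK1, acts below the receptors and above these genes in the cascade.

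**Figure D5:**
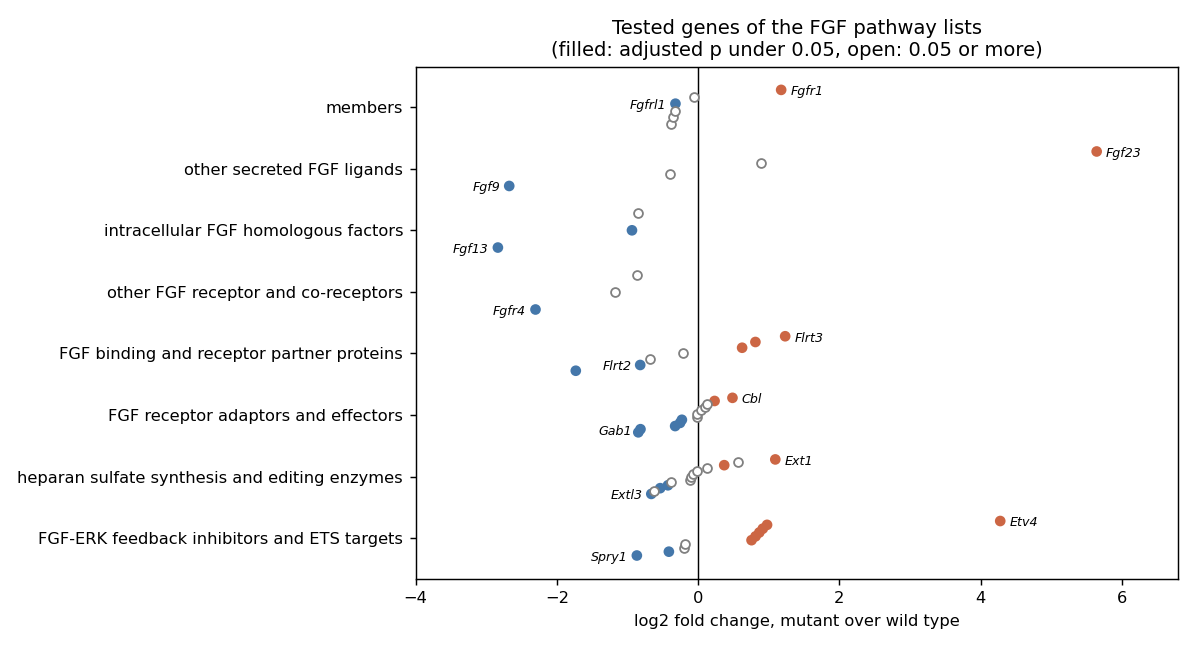
Fitted log2 fold change of mutant over wild type (horizontal axis) for each tested gene of the 7 genes and of the 7 pathway lists (filled, adjusted p under 0.05; open, 0.05 or more; orange, higher; blue, lower). *Etv4* (4.28) and *Ext1* (1.09) lie to the right and *Fgf13* (-2.84) and *Fgfr4* (-2.31) to the left, and the fitted value of *Fgf23* depends on the prior count because its wild-type libraries held 3 counts or fewer.

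The genes whose pattern over the 8 libraries was most like that of *Fgfr1* were *Pi4k2b*, a phosphatidylinositol kinase gene, and *Gfod1*. Their log2 counts scaled to library size, relative to their own wild-type means, differed from those of *Fgfr1* by 0.0456 and 0.0525 on average, the smallest differences among 11395 genes compared. Those most like *Fgfrl1* were *Asf1a*, a histone chaperone gene (0.0426), and *Stradb* (0.0485).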

How the data were processed

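RNA was measured in CD31-captured brain ECs of 4 mutant and 4 wild-type pups, 1 library per pup, grouped by their titles. The authors used Trimmomatic for trimming and STAR for mapping to GRCm38, and deposited whole-number counts per gene, without normalization. The counting program, its annotation, its use of strand and its treatment of reads with several positions are not given in the sources used here. The authors' normalized values were not used. Of 49315 identifiers, 48970 matched a symbol. The genes and lists were chosen with earlier results of these data known.

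The tests ran in edgeR 4.0.16 under R 4.3.3. TMM gave the library scaling and filterByExpr (minimum count 10) the genes to test, and the groups were compared with glmQLFit and glmQLFTest, without covariates, over 16887 genes. Adjusted p-values follow Benjamini and Hochberg. Marker lists were compared by two-sided exact permutation tests (scipy 1.17.1). The analysis was tested on simulated data. Libraries of a group differed by more than sampling noise (chi-square per degree of freedom 7.29 to 41.8 over 12 pairs), so each was kept as a replicate. The chi-square is summed over all genes. For a single gene of low count, such as *Fgf2*, whether the spread between pups or counting error limits precision was not tested. Counting intervals are exact binomial at 95% and cover counting error only.

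Named genes were all 7 members, *Map2k1*, genes with exons that overlap theirs, up to 3 genes per pathway list with the largest absolute log2 fold change among those passing whose higher group averaged 100 normalized counts or more, and the 2 genes of most similar pattern for each member that passed. Others were chosen after their values were seen. Alternatives were DESeq2 1.42.0, limma 3.58.1 (voom), other scalings and filters, glmTreat, blocks by replicate number or library code, and each library left out. Promoter windows come from RefSeq (GRCm38.p6).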

Additional observations from a re-analysis of the deposited data

Results flagged for a closer look

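Among 64 groups of 4 libraries checked for a single value far from the others, 3 were picked out, and chance picks out about 1 in 20 such groups. None concerned the 7 FGF receptor and ligand genes. *Ext1* was at 1688 normalized counts in 1 wild-type library, beside a median of 1446 in the other wild-type libraries. *Flrt2* was at 2909.7 normalized counts in 1 wild-type library, beside a median of 3179.8 in the others. The endothelial marker list summed to 333026 normalized counts in 1 wild-type library, beside a median of 397403 in the others.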

How the results depend on the processing

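*Fgfr1* kept its direction and its call in 17 of 18 alternatives, with a log2 fold change of 1.07 to 1.31. Tested against a log2 fold change of 1 with edgeR's glmTreat, it was unchanged at 1.18 but no longer passed (adjusted p = 0.492), and 0 of the members were then called higher and 0 lower. *Fgfr2* passed with the library code as a block (-0.35, adjusted p = 0.0435), where 2 members were called lower. *Fgfrl1* lost its call with DESeq2 size factors (-0.30, adjusted p = 0.0540), without a filter on low counts (-0.32, adjusted p = 0.105) and under glmTreat (-0.32), and 0 members were called lower in each. With 1 library left out it ranged from -0.36 to -0.26, and the number of members called lower from 0 to 1. The cause of these changes was not tested. *Fgfr3*, *Fgf1* and *Fgf2* stayed below the threshold in every alternative that gave a value, and *Fgf1* and *Fgf2* had none under the minimum mean of 100 counts. The sign of *Frs2* turned with upper quartile scaling (-0.019) and total count scaling (-0.013). Of 30 list genes that passed, 25 kept their call under every alternative that gave a value, which were 17 each, or 16 for 5 genes that the minimum mean of 100 counts removed, with their calls in the list counts (*Fgf9*, *Fgf12*, *Fgf23*, *Fgfr4* and *Flrt1*). The other 5 (*Fgf12*, *Flrt1*, *Sos1*, *Ptpn11* and *Crkl*) lost it under at least 1, and 0 changed direction. With a replicate block, *Fgfr1* was at 1.15 (adjusted p = 3.25e-04) and *Fgfrl1* at -0.32 (adjusted p = 0.0387), and no call among the members changed. Of the other receptor and co-receptor genes, 2 were lower in this fit and with the library code as a block. Same-numbered libraries correlated by 0.02 to 0.29 in their deviations from the group means, and 3 of 8 libraries correlated best with their own number. Replicates 1 and 2 share a code, and their mutant and wild-type libraries correlated by 0.17 to 0.25 in every pairing. Mutant and wild-type libraries of different codes correlated by -0.36 to 0.38. Same-numbered libraries also share a library code, whose meaning no label gives, so the number is not treated as a pairing and the code was fitted as a block of its own. The difference in the share of *Fgfr1* was 20.1 percentage points, 15.4 without division by length, 24.9 with *Fgfrl1* in the sum, and 18.3 to 22.1 with 1 library left out. Of the 9 marker lists, 4 did not overlap between the groups, and 3 without *Gja1* and *Rgs5*, a choice made after the data were seen, and 4 to 5 with 1 library left out. With a library left out, or in 4 pairs, the exact permutation test cannot pass 0.05, so these are values without a test. Depth limits *Fgf7*, *Fgf9* and *Fgf23*, which had few counts in at least 1 group.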
